A study of Mus musculus with 16 samples.

Results

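Replication-dependent histone genes encode the linker histone H1 and the core histones H2A, H2B, H3 and H4 that package newly copied DNA. Their transcripts were followed in mouse cartilage cells (articular chondrocytes) in culture that had received a vehicle, bleomycin, doxorubicin or interleukin-1 beta (IL-1β). The genes were taken as the rows whose gene name begins with Hist1h, Hist2h, Hist3h or Hist4h. The deposited tables mostly carry newer symbols (H2bc4 in place of Hist1h2bc), so the prefixes found 9 rows by table symbol and 70 rows after each Ensembl identifier was matched to its name in GENCODE M21. The 70 genes, out of 55450 rows, were 6 H1, 20 H2A, 19 H2B, 12 H3 and 13 H4 genes, and 65 of them had a value above 0 in at least 1 library. The unit was FPKM, fragments scaled to gene length and to the mapped total of the library. Beyond the name, these 65 genes were selected on a single measurement, FPKM above 0, and no comparison between groups entered that choice. H2bc1, a testis form of H2B, lay just inside it with 3 libraries above 0 and at most 0.139 FPKM. Hist1h2ao, Hist1h2ap, H2ac1, Hist1h2bq and Hist1h2br lay outside it, listed at 0 in all 16 libraries. Which of the 65 were tested or described singly also depended on a low-value filter and on the comparisons between groups. Of the 9 rows with the older prefix in the tables, Hist1h2al and Hist1h4n reached the tests, while Hist1h4m, Hist1h2bp and Hist1h2an stayed at or below 0.790, 0.615 and 0.483 FPKM.

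Each of the 4 groups held 4 libraries of primary chondrocytes kept in 3% oxygen, with 10% fetal bovine serum in the medium. Bleomycin, an agent that breaks DNA, was applied at 50 µg/mL for 24 h to cells that had first spent 4 h without serum in 4 U/mL hyaluronidase, and collection followed 5 days in fresh medium. Doxorubicin, which traps topoisomerase II on DNA, was applied at 50 nM for 5 days. IL-1β, an inflammatory cytokine, was applied at 1 ng/mL for 24 h, with an equal volume of saline as the vehicle. The saline for 24 h is the only vehicle the labels describe, and whether its cells had hyaluronidase or were kept as many days as the drug cells is not given in the sources used here. Bleomycin therefore cannot be told apart from hyaluronidase and longer culture, nor doxorubicin from longer culture. The labels do not say whether the 4 libraries of a group came from separate cultures or animals, and p-values measure the spread between these libraries only. RNA was captured by its poly(A) tail before stranded library preparation.

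Most replication-dependent histone mRNAs are made in S phase and, unlike other mRNAs, end in a short stem-loop instead of a poly(A) tail. The stem-loop is bound by SLBP, which guides cutting of the 3′ end, translation and the rapid decay of these mRNAs when DNA synthesis stops. Some of the genes also give polyadenylated mRNAs that run past the stem-loop, a form known from differentiated cells and cells that have left the cell cycle. The values here therefore cover histone RNA that was caught on a poly(A) tail or carried along with such RNA, and the tail-less pool was not measured.

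The histone stem-loop (a stem of paired bases around a short loop) was searched after the stop codon on the sense strand of the GENCODE M21 transcripts (build GRCm38). It was found in 46 of the 70 genes, against 0.126% of 51567 coding transcripts of all genes with at least 16 bases after the stop codon. The elements of the leading genes are shown because they are the end that a tail-less transcript would have, and the annotated transcripts run on beyond them. Capitals mark the stem-loop, and 5 flanking bases on either side are in lower case.
H1f2: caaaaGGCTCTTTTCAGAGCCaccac
H2aw: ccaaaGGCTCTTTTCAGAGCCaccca
H3c14: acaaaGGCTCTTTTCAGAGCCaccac
H4c9: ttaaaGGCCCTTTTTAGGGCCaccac
H4c8: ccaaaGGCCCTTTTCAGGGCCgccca
Hist1h4n: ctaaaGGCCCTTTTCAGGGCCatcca
They lie at chr13:23739507-23739532 on the plus strand (H1f2), chr11:58955167-58955192 on the plus strand (H2aw), chr3:96247322-96247347 on the plus strand (H3c14), chr13:22040961-22040986 on the minus strand (H4c9), chr13:23531453-23531478 on the plus strand (H4c8) and chr13:21831793-21831818 on the minus strand (Hist1h4n). The form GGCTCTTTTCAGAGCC was the most frequent, in 26 genes of classes H1, H2A, H2B and H3 and in no H4 gene. The form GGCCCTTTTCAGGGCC was in 7 genes, all of them H4.

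The annotated transcripts differed in how far they ran past the coding part. H1f2 had 840 annotated bases after its stem-loop, H2aw 1643, H4c9 330 and H4c8 46, and all 4 held a poly(A) signal (AATAAA or ATTAAA, sense strand) in their last 60 bases. H2bc4 had no stem-loop after its stop codon in M21 and was spliced into a second exon, with 742 bases after the stop codon and no such signal. A poly(A) signal was present in at least 1 transcript of 17 of the 70 genes. It was in 61.9% of the coding transcripts of all genes with at least 16 bases after the stop codon. That share counts transcripts, and the 70 genes include some without such bases, so the values are not counted alike. Among the 17 genes expressed highly enough to be tested, 7 held the signal and 9 had at least 300 bases after the stop codon, against 10 and 13 of the other 53. The annotated end of 13 genes was the stop codon itself, so their length may be understated and their FPKM with it uncertain. These counts describe an annotation, and no 3′ end was measured in the libraries.

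**Figure D1:**
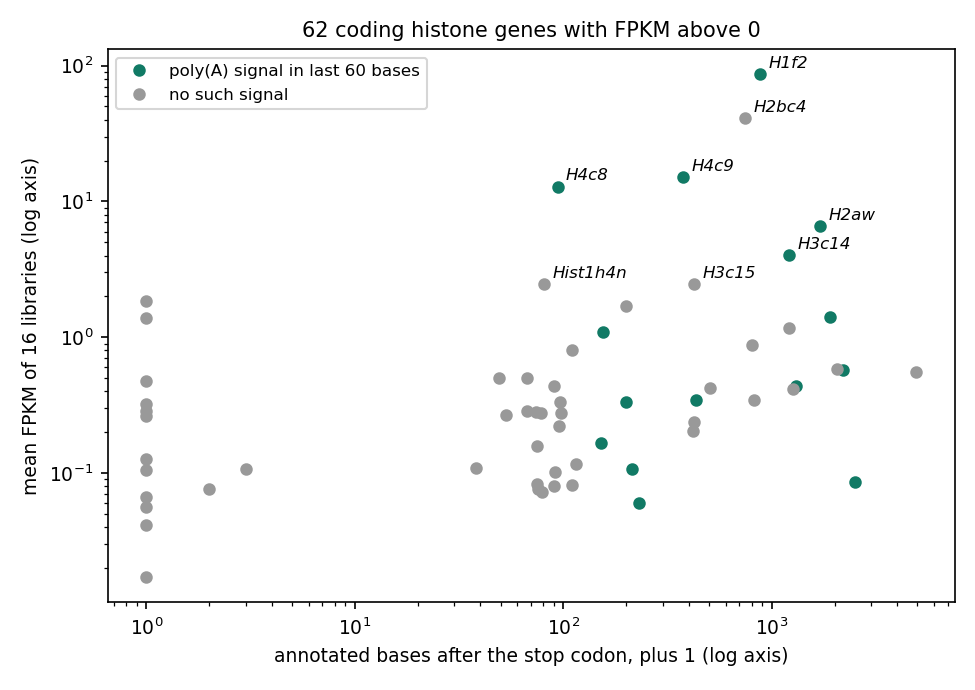
Mean FPKM over 16 libraries (log axis) against the annotated bases after the stop codon plus 1 (log axis) for the 62 coding histone genes above 0; each point is a gene, and green points hold a poly(A) signal in their last 60 bases. The highest genes, H1f2 and H2bc4, have 880 and 742 bases after the stop codon, while H4f16, with 2515 such bases, averages 0.0865 FPKM.

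Promoters were read from RefSeq (GRCm38.p6), where 54 of the 70 genes matched by symbol, and the 250 bases before the start were searched on both strands. The CCAAT box (letters CCAAT) was present in 45 of 54, or 83.3%, against 34.5% of 27025 promoters of all genes. It was in all 6 H1, 15 H2A and 13 H2B promoters and in 8 of 10 H3 promoters, but in 3 of 10 H4 promoters. The TATA box (letters TATAA) was in 61.1% of the histone promoters and 23.5% of all. The octamer (letters ATTTGCAT), a site of OCT factors known from H2B promoters, was in 24.1% of the histone promoters and 1.61% of all, in 7 of 15 H2A and 6 of 13 H2B promoters and in none of the other classes. The 150 bases before the start of an H2B, an H2A, an H1 and an H4 gene that rose with both drugs are shown because they differ in these motifs, which are in capitals on either strand; the forward and reverse TATA letters overlap at the far end of the H4c9 stretch.
H2bc8: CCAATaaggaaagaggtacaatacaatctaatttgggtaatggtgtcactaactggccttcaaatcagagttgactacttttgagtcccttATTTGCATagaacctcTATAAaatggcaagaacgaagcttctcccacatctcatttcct
H2aw: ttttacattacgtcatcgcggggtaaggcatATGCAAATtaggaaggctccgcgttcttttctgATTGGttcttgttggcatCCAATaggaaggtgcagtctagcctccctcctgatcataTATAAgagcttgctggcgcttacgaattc
H1f2: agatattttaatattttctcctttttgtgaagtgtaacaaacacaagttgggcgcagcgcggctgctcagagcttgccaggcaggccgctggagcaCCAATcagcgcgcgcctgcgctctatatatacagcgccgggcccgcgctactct
H4c9: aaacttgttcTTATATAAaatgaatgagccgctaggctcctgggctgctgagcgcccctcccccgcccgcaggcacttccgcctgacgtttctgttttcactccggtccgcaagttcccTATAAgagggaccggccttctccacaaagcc
They lie at chr13:23571250-23571399 on the plus strand (H2bc8), chr11:58954535-58954684 on the plus strand (H2aw), chr13:23738657-23738806 on the plus strand (H1f2) and chr13:22041363-22041512 on the minus strand (H4c9). Factor binding was not measured in these libraries.

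Depth, estimated from the steps between low FPKM values, was 15.7 to 21.8 M (1e6) fragments per library, so that 1 FPKM on 500 bases stood for 7.84 to 10.9 fragments. All 10 chondrocyte markers passed the low-value filter in these cells, and Col2a1, the main collagen of cartilage, had a mean of 8971 FPKM in vehicle, 6356 in bleomycin, 6495 in doxorubicin and 3972 in IL-1β. All 7 endothelial and 6 erythroid markers stayed below 1 FPKM. Of 10 macrophage markers 7 stayed below 1 FPKM, and the list summed to 5.05 to 6.96 FPKM in vehicle, 10.7 to 12.5 in bleomycin, 14.7 to 18.3 in doxorubicin and 14.9 to 16.8 in IL-1β; 7 synovial fibroblast markers, of which 3 stayed below 1 FPKM, summed to 38.0 to 61.9, 60.6 to 88.7, 73.2 to 118 and 77.4 to 111 FPKM in the same order. The macrophage sums of all 3 treated groups lay above vehicle, as did the fibroblast sums of doxorubicin and IL-1β, while those of bleomycin overlapped vehicle. The part of these cell types in the histone values was not tested. In these bulk libraries, more cells that express a histone gene and more RNA per cell cannot be told apart.

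The summed level of the 70 genes was 107 ± 5.67 FPKM in vehicle (mean ± SD, n = 4), 288 ± 16.7 in bleomycin, 291 ± 17.5 in doxorubicin and 128 ± 2.24 in IL-1β. H1f2 alone made up 42.3% of the sum over all libraries, and H1f2, H2bc4 and H4c9 together 70.0%. Between 42 and 51 of the genes were above 0 in a vehicle library, 57 to 59 in a bleomycin library, 51 to 57 in a doxorubicin library and 49 to 53 in an IL-1β library. At least 1 FPKM was reached by 8 to 9 genes per vehicle library and 9 to 12 per IL-1β library, but by 17 to 20 and 17 to 19 per bleomycin and doxorubicin library. All 5 classes were higher in both drug groups than in vehicle in every library, as the plot of summed FPKM by class shows, and the sums are given as a description without a test.

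**Figure D2:**
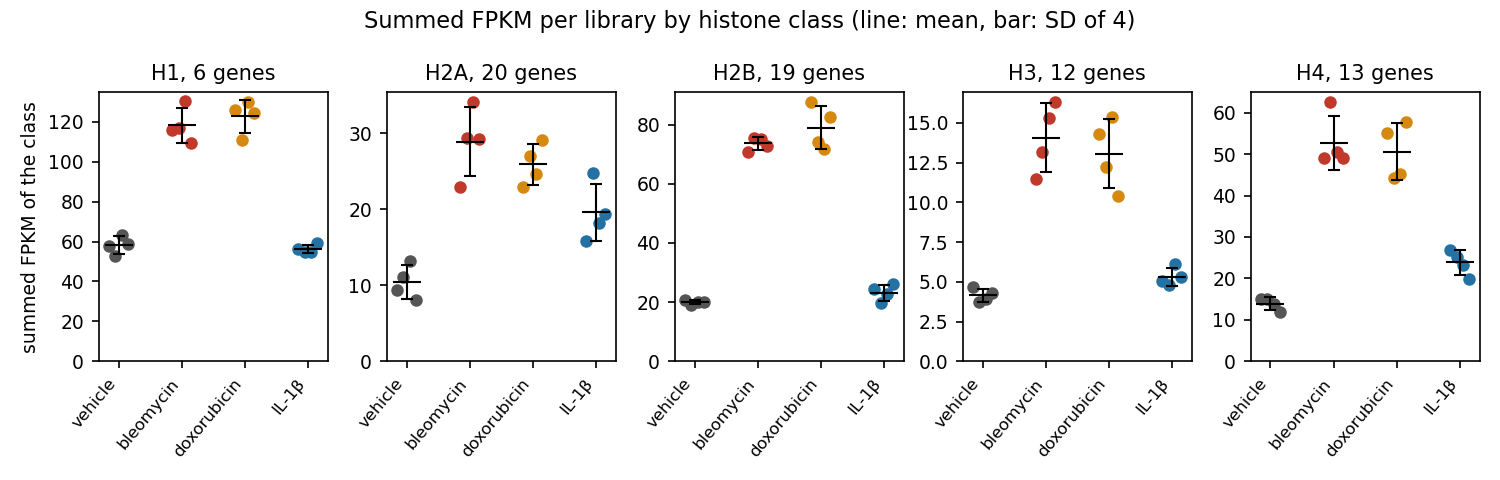
Summed FPKM of each histone class (linear axis from 0) in each of the 16 libraries; points are libraries, the line is the group mean and the bar its SD over 4 libraries. For H4 the vehicle libraries lie between 11.8 and 15.1, those of IL-1β between 19.95 and 27.0, and those of both drugs between 44.4 and 62.5.

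Genes that reached 1 FPKM in 4 or more libraries were tested on log2(FPKM + 1) with limma over all 16 libraries, with Benjamini-Hochberg adjustment over 12976 genes, and a gene was said to rise or fall at an adjusted p under 0.05. The test took in 17 histone genes: 2 H1, 3 H2A, 4 H2B, 3 H3 and 5 H4. Of these, 9 would have passed on the vehicle and IL-1β libraries alone, and 8 (H1f4, H2ac19, H2bc18, H2bc8, H2bc6, H3c15, H3c4 and H4c1) passed only through the drug libraries, so that a higher drug value was built into their selection. H2ac19 entered with 5 libraries at or above 1 FPKM, and H2ac6 stayed out with 3. With bleomycin 16 of the 17 rose and 0 fell, where 27.9% of all tested genes rose and 19.0% fell. With doxorubicin 16 rose and 0 fell, where 25.4% of all tested genes rose and 22.8% fell. Of the 9 genes that needed no drug library to be tested, 8 rose with each drug, with a median log2 difference of 1.42 and 1.26. The exception under both drugs was H4c12. The median log2 difference of the 17 was 1.00 with bleomycin and 1.07 with doxorubicin, beside 0.06 and 0.02 over all tested genes. Both comparisons use the same vehicle libraries. With IL-1β 7 of 17 rose and 0 fell, where 24.5% of all tested genes rose and 18.4% fell, and the median was 0.18 beside 0.03. The 8 genes that entered through the drug libraries weigh on that count: of the other 9, 6 rose with IL-1β and the median was 0.47. One of the 9, Hist1h4n, reached 1 FPKM in the 4 IL-1β libraries and in no vehicle library, so it passed through IL-1β.

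**Figure D3:**
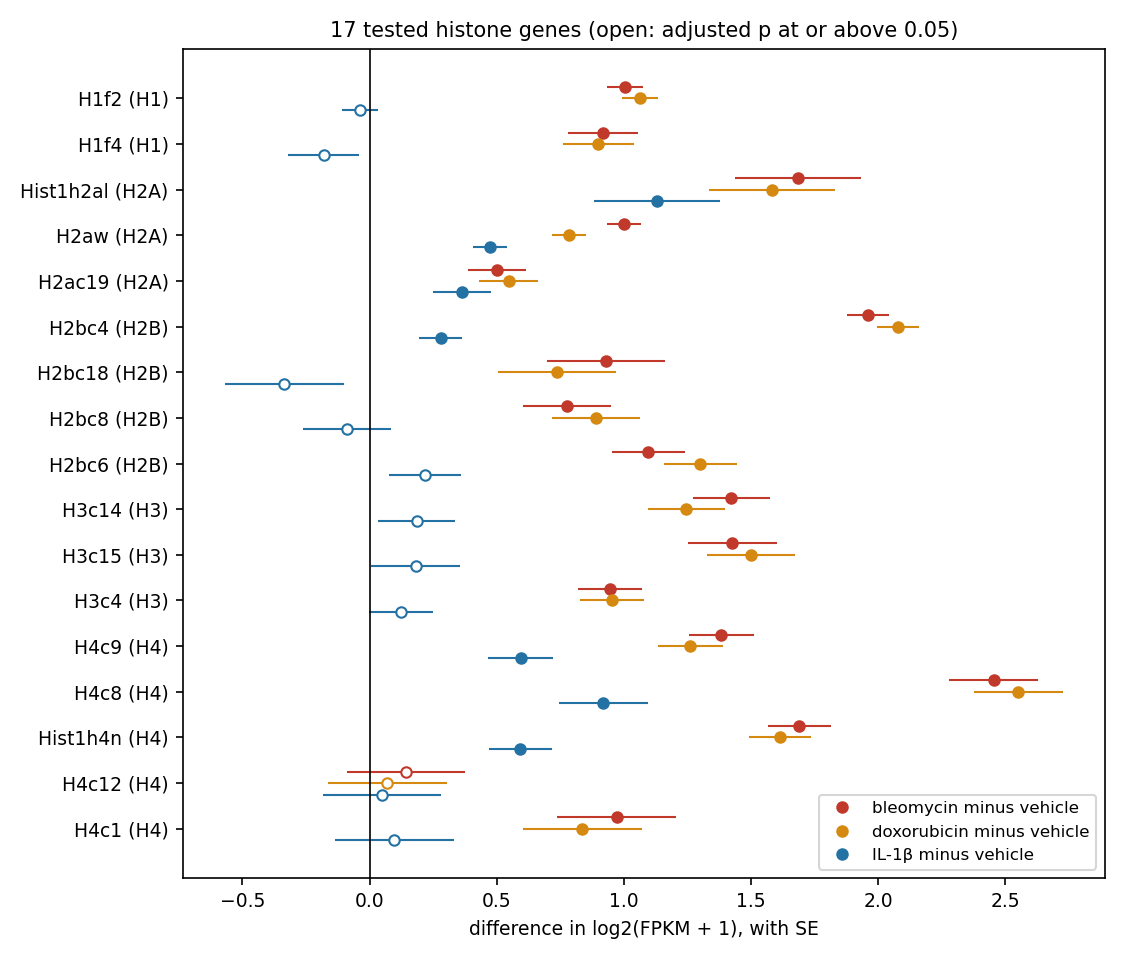
Difference in log2(FPKM + 1) from vehicle, with its standard error, for the 17 tested histone genes; colours mark the treatment and open points have an adjusted p at or above 0.05 (limma). Bleomycin and doxorubicin points lie close together for each gene, from 0.14 and 0.07 for H4c12 to 2.45 and 2.55 for H4c8, and IL-1β points lie lower.

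Linker histone H1 binds the DNA between nucleosomes. H1f2 (Hist1h1c) was the most abundant of the 70 genes. It stood at 55.6, 50.6, 61.6 and 57.7 FPKM in the vehicle libraries and at 55.0, 53.7, 52.9 and 57.7 with IL-1β. It stood at 111, 114, 126 and 105 FPKM with bleomycin and at 122, 106, 127 and 121 with doxorubicin. All drug libraries lay above all vehicle libraries, and the IL-1β libraries lay among those of vehicle. The means were 2.02-fold and 2.11-fold higher with bleomycin and doxorubicin (log2 difference 1.00 ± 0.07 SE, adjusted p = 1.68e-08, and 1.06 ± 0.07, adjusted p = 5.49e-09, limma). H1f2 has its own sequence for the most part: 8.54% of its 50-base words also occur in transcripts of other genes.

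H1f4 (Hist1h1e), another somatic H1, was far lower, at 0.465, 0.326, 0.787 and 0.583 FPKM in vehicle and 0.240, 0.160, 0.484 and 0.560 with IL-1β. It reached 1.74, 1.48, 2.01 and 2.42 FPKM with bleomycin and 2.19, 2.17, 1.32 and 1.85 with doxorubicin. The drug libraries again all exceeded vehicle, with log2 differences of 0.92 ± 0.14 and 0.90 ± 0.14. Its annotated transcript overlaps that of H2bc6 on the same strand, so reads of these genes could have been split by the counting. H1f3 (Hist1h1d) was too low to test, at 0.459, 0.393, 0.265 and 0.316 FPKM in vehicle, 0.953, 1.01, 1.14 and 0.659 with bleomycin, 0.731, 0.922, 0.809 and 0.540 with doxorubicin and 0.182, 0.160, 0.188 and 0.217 with IL-1β. Its drug libraries lay above all vehicle libraries and its IL-1β libraries below them.

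H2A pairs with H2B in the nucleosome. The row with the highest H2A value, Hist1h2al, is annotated as a processed pseudogene on chromosome 13, and 67.6% of its 50-base words occur in other genes' transcripts, so its reads may belong to other H2A copies. Its values were 2.83, 4.99, 5.95 and 2.89 FPKM in vehicle, 10.0, 16.4, 20.5 and 15.1 with bleomycin, 10.7, 14.1, 13.8 and 18.2 with doxorubicin and 7.10, 15.3, 8.86 and 9.87 with IL-1β. Every treated library lay above every vehicle library, and the IL-1β libraries overlapped those of the drugs. The log2 differences from vehicle were 1.69 ± 0.25, 1.58 ± 0.25 and 1.13 ± 0.25 (adjusted p = 4.04e-05, 6.26e-05 and 0.00147, limma).

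H2aw (Hist3h2a), on chromosome 11 outside the large cluster, had tight replicates: 3.81, 4.15, 3.74 and 4.24 FPKM in vehicle, 8.77, 9.13, 8.67 and 9.30 with bleomycin, 7.78, 8.05, 7.66 and 6.87 with doxorubicin and 5.99, 6.17, 5.27 and 6.26 with IL-1β. No pair of groups overlapped, and the order from low to high was vehicle, IL-1β, doxorubicin and bleomycin. The log2 differences from vehicle were 1.00 ± 0.07 with bleomycin, 0.78 ± 0.07 with doxorubicin and 0.47 ± 0.07 with IL-1β (adjusted p = 9.63e-09, 8.94e-08 and 2.42e-05, limma). Its transcript overlaps an exon of Trim17 on the same strand.

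H2ac19 (Hist2h2aa2) is one copy of a duplicated stretch of chromosome 3, and all of its 50-base words occur in other genes' transcripts. It was at 0.413, 0.565, 0.459 and 0.184 FPKM in vehicle, 0.616, 0.951, 1.23 and 1.19 with bleomycin, 1.17, 1.03, 1.11 and 0.866 with doxorubicin and 0.822, 0.824, 0.638 and 0.924 with IL-1β. The treated libraries all exceeded vehicle, by log2 differences of 0.50 ± 0.11, 0.55 ± 0.11 and 0.36 ± 0.11. Its rise with IL-1β (adjusted p = 0.0169, limma) was lost under quantile normalization (adjusted p = 0.09) and without vehicle library 4 (adjusted p = 0.0634).

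H2bc4 (Hist1h2bc) was the leading H2B gene and the next most abundant of the 70 genes after H1f2. It stood at 16.5, 14.1, 14.6 and 16.2 FPKM in vehicle and at 20.4, 15.97, 18.3 and 20.9 with IL-1β. It stood at 62.1, 63.4, 64.1 and 60.4 FPKM with bleomycin and at 74.8, 63.7, 61.7 and 72.4 with doxorubicin. All drug libraries lay far above all vehicle and IL-1β libraries. The means were 4.07-fold higher than vehicle with bleomycin and 4.44-fold with doxorubicin (log2 difference 1.96 ± 0.08, adjusted p = 7.16e-11, and 2.08 ± 0.08, adjusted p = 2.7e-11, limma). The rise with IL-1β was 1.23-fold, with 1 IL-1β library inside the vehicle range (log2 difference 0.28 ± 0.08, adjusted p = 0.0122).

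The other tested H2B genes were low, with vehicle means of 1.11 FPKM or less. H2bc18 (Hist2h2bb) was at 0.861, 0.727, 1.88 and 0.982 FPKM in vehicle, 1.83, 2.31, 3.23 and 5.10 with bleomycin, 2.07, 2.80, 1.95 and 3.12 with doxorubicin and 0.441, 0.593, 0.338 and 1.36 with IL-1β. One bleomycin library lay just under the highest vehicle library, and the doxorubicin libraries all lay above it. H2bc8 (Hist1h2bg) was at 0.979, 1.16, 1.24 and 0.484 FPKM in vehicle, 1.96, 3.05, 2.13 and 2.26 with bleomycin, 3.21, 1.92, 2.67 and 2.74 with doxorubicin and 0.843, 1.45, 0.373 and 0.789 with IL-1β. H2bc6 (Hist1h2be) had 0.197 to 0.686 FPKM in vehicle, 1.58 to 2.57 with bleomycin, 1.80 to 3.09 with doxorubicin and 0.430 to 0.785 with IL-1β. H2bc8 and H2bc6 did not overlap between either drug and vehicle. The log2 differences of H2bc18, H2bc8 and H2bc6 were 0.93, 0.78 and 1.10 with bleomycin and 0.74, 0.89 and 1.30 with doxorubicin, and none of the 3 passed the test with IL-1β.

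H3 carries many of the histone modifications that mark active and silent chromatin. H3c14 (Hist2h3c1) was at 1.80, 1.52, 1.502 and 2.33 FPKM in vehicle, 5.54, 5.53, 6.66 and 8.29 with bleomycin, 5.59, 5.50, 7.46 and 4.14 with doxorubicin and 1.86, 1.87, 2.24 and 2.69 with IL-1β. H3c15 (Hist2h3c2) was at 1.23, 0.851, 0.721 and 0.470 FPKM in vehicle, 3.19, 3.90, 4.54 and 3.79 with bleomycin, 4.99, 3.97, 4.78 and 2.89 with doxorubicin and 1.11, 0.805, 1.78 and 0.630 with IL-1β. H3c4 (Hist1h3d) was at 0.395, 0.274, 0.188 and 0.179 FPKM in vehicle, 0.945, 1.23, 1.66 and 1.97 with bleomycin, 1.38, 1.43, 1.22 and 1.73 with doxorubicin and 0.291, 0.583, 0.301 and 0.317 with IL-1β. For each of the 3 the drug libraries all lay above vehicle and the IL-1β libraries overlapped it. The fold of means with bleomycin and doxorubicin was 3.64 and 3.17 for H3c14, 4.72 and 5.09 for H3c15, and 5.60 and 5.56 for H3c4. H3c14 and H3c15 belong to the duplicated stretch on chromosome 3 and share 100% and 63.5% of their 50-base words with other genes. The H3c14 transcript also overlaps an exon of Gm20634 on the same strand, and words shared with an overlapping gene are counted too. Reads may therefore be shared between copies or, for H3c14, with the overlapping gene.

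H4 forms the nucleosome core with H3, and the mouse H4 genes encode the same or almost the same protein, so their coding letters are much alike. H4c9 (Hist1h4i) was at 8.71, 8.17, 7.45 and 6.11 FPKM in vehicle, 19.3, 26.7, 20.6 and 19.5 with bleomycin, 22.4, 18.9, 16.7 and 20.5 with doxorubicin and 14.1, 11.8, 12.5 and 9.66 with IL-1β. H4c8 (Hist1h4h) was at 2.84, 3.39, 3.57 and 1.82 FPKM in vehicle, 18.5, 25.1, 17.7 and 19.6 with bleomycin, 24.6, 18.2, 17.5 and 27.2 with doxorubicin and 7.37, 7.51, 5.03 and 5.47 with IL-1β. Hist1h4n was at 0.578, 0.547, 0.591 and 0.519 FPKM in vehicle, 3.55, 4.42, 4.85 and 3.43 with bleomycin, 3.34, 3.05, 4.58 and 4.29 with doxorubicin and 1.81, 1.07, 1.20 and 1.39 with IL-1β. In all 3 genes the IL-1β libraries sat between vehicle and the drug libraries without touching either. H4c8 had the largest log2 differences of the 17 genes with both drugs, 2.45 ± 0.18 and 2.55 ± 0.18 (adjusted p = 2.01e-08 and 8.31e-09, limma), or 6.96-fold and 7.53-fold. Hist1h4n rose 7.27-fold and 6.83-fold, and H4c9 2.83-fold and 2.58-fold. With IL-1β the folds were 2.18 for H4c8, 2.45 for Hist1h4n and 1.58 for H4c9 (adjusted p = 0.000467, 0.000942 and 0.00129, limma). Other genes' transcripts hold 85.6% of the 50-base words of Hist1h4n, 45.8% of those of H4c8 and 28.9% of those of H4c9. Reads may therefore be shared between H4 copies. The vehicle values of Hist1h4n stood for a median of 4.0 fragments, so its folds rest on few fragments.

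The remaining tested H4 genes were low. H4c1 (Hist1h4a) had 0 to 1.04 FPKM in vehicle, 1.26 to 2.93 with bleomycin, 1.01 to 2.22 with doxorubicin and 0.222 to 1.05 with IL-1β, and rose with bleomycin (log2 difference 0.97 ± 0.23) and doxorubicin (0.84 ± 0.23). H4c12 (Hist1h4k) had 0.529 to 1.96 FPKM in vehicle, 1.13 to 1.81 with bleomycin, 1.01 to 1.90 with doxorubicin and 0.669 to 2.80 with IL-1β. All its groups overlapped, and its log2 differences from vehicle were 0.14 ± 0.23, 0.07 ± 0.23 and 0.05 ± 0.23 (adjusted p = 0.647, 0.83 and 0.884, limma). H4c12 ends at its stop codon in the annotation and its vehicle values stood for a median of 7.53 fragments. These limits were not particular to H4c12. The median vehicle fragments were fewer for H4c1 (3.946), Hist1h4n, H2ac19 (4.005), H3c4 (4.75) and H2bc18. All of these genes rose with both drugs. H4c1, H2ac19, H3c4 and H2bc18 passed the filter only through the drug libraries, so a higher drug value was built into their selection. What these limits did to the values of H4c12 was not tested. H2bc18 also ends at its stop codon in the annotation.

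**Figure D4:**
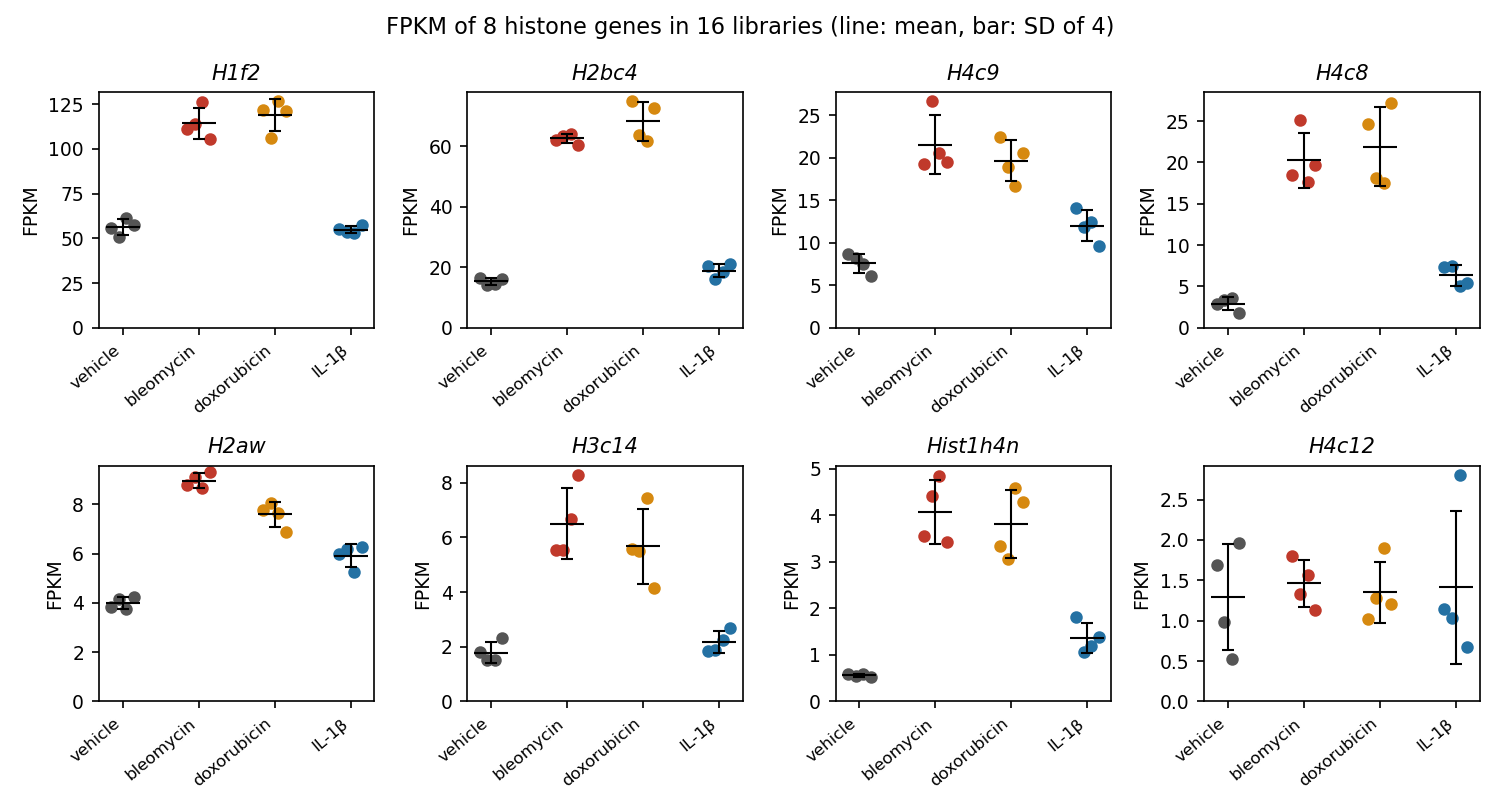
FPKM (linear axis from 0) of 8 histone genes in each of the 16 libraries; points are libraries, the line is the group mean and the bar its SD over 4 libraries. H1f2 with IL-1β lies at the vehicle level, H4c9, H4c8, H2aw and Hist1h4n with IL-1β lie between vehicle and the drugs, and H4c12 overlaps in all groups.

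Under the condition that all 4 treated libraries exceed all 4 vehicle libraries, 15 of the 17 tested genes met it with bleomycin (26.3% of all tested genes), 15 with doxorubicin (23.6%) and 6 with IL-1β (22.0%). Over the 9 genes that needed no drug library to be tested, the counts were 8, 8 and 5. The genes that rose with IL-1β were the 3 H2A genes, H2bc4, and the H4 genes H4c9, H4c8 and Hist1h4n; none of the 2 H1 or 3 H3 genes passed. H2bc18 and H1f4 had lower means with IL-1β than in vehicle (0.684 ± 0.464 against 1.11 ± 0.524 FPKM, and 0.361 ± 0.191 against 0.540 ± 0.195) without passing the test.

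The difference between the drugs and IL-1β was itself tested, as the mean of bleomycin and doxorubicin minus IL-1β. In it 14 of the 17 genes were higher with the drugs and 0 lower, where 28.5% of all tested genes were higher and 29.5% lower. For the 8 genes that entered through the drug libraries this direction was built into the selection, and of the other 9, 7 were higher with the drugs and 0 lower (median log2 difference 1.06). Without the low-value filter 22 of 65 were higher and 0 lower (14.0% and 13.8% of all genes). The largest differences were 1.74 ± 0.07 for H2bc4, 1.58 ± 0.15 for H4c8 and 1.28 ± 0.15 for H3c15 on the log2 scale (adjusted p = 6.93e-12, 2.04e-07 and 2.03e-06, limma). Hist1h2al (0.51 ± 0.21, adjusted p = 0.0541), H2ac19 (0.16 ± 0.10, adjusted p = 0.178) and H4c12 did not pass. Hist1h2al passed without IL-1β library 2, its highest in that group (0.70, adjusted p = 0.0123), without vehicle library 3, bleomycin library 1 or doxorubicin library 1, and with only the libraries compared in the fit (adjusted p = 0.0446, limma).

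Between bleomycin and doxorubicin 0 of the 17 genes passed the limma test, where 10.0% of all tested genes did (5.85% higher and 4.18% lower with bleomycin), and 1 had an unadjusted p under 0.05. That gene was H2aw, higher with bleomycin in all 4 libraries, as in 11.6% of all tested genes (log2 difference 0.22 ± 0.07, adjusted p = 0.0511). It passed with a filter of 5 FPKM (adjusted p = 0.0477) and without IL-1β library 3 (adjusted p = 0.0331, limma), a library of neither group that enters through the shared estimate of spread. The log2 differences of the 17 ran from -0.21 (H2bc6, SE 0.14) to 0.22, and differences within these errors were not detectable with 4 libraries a group.

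The 53 genes below the filter were all low: 44 never reached 1 FPKM, and the highest value was 1.37 FPKM, in H4c3. Of the 48 that were above 0 in some library, the mean was higher than vehicle in 40 with bleomycin, 30 with doxorubicin and 30 with IL-1β. Their summed level was 7.60 FPKM in vehicle, 15.3 with bleomycin, 12.3 with doxorubicin and 9.55 with IL-1β. When the filter was dropped and all 65 genes above 0 were fitted with the 30086 genes above 0, 23 histone genes rose with bleomycin and 0 fell (13.1% of all genes rose and 7.67% fell), 22 rose with doxorubicin and 0 fell (12.5% and 9.34%), and 7 rose with IL-1β and 0 fell (11.2% and 7.66%).

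Beyond the 16 genes already described, that fit added H1f3, H2ac6, H2ac7, H2bc21, H3c11, H4c14 and Hist1h4m with bleomycin. With doxorubicin it added H1f3, H2ac6, H2ac7, H2bc15, H4c14 and Hist1h4m. H2ac6 (Hist1h2ac), the neighbour of H2bc4 on the other strand, was at 0.207, 0.229, 0 and 0.233 FPKM in vehicle, 0.739, 1.01, 0.851 and 1.02 with bleomycin, 0.898, 1.03, 0.826 and 0.838 with doxorubicin and 0.341, 0.418, 0.279 and 0.383 with IL-1β. H4c14 (Hist2h4) had 0.038 to 0.186 FPKM in vehicle, 0.614 to 1.21 with bleomycin, 0.462 to 0.838 with doxorubicin and 0.0316 to 0.333 with IL-1β. At such levels a value rests on few fragments.

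By position, 56 of the 70 genes lie on chromosome 13, 10 on chromosome 3, 3 on chromosome 11 and 1 on chromosome 6. The tested genes were 12, 4, 1 and 0 of these. Among genes that needed no drug library to be tested, a rise with both drugs was seen on chromosome 13, chromosome 3 (H3c14) and chromosome 11 (H2aw). The other tested genes on chromosome 3, H2ac19, H2bc18 and H3c15, passed only through the drug libraries. Hist1h2al, at chr13:51202727-51203065, lies far from the other genes of its chromosome.

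The wider set of genes that serves histone supply and DNA synthesis was described by lists, with counts of tested genes, from the same fit. Beside these counts, 27.9% of all tested genes rose and 19.0% fell with bleomycin. The shares were 25.4% and 22.8% with doxorubicin, and 24.5% and 18.4% with IL-1β. Of 36 genes of S phase and DNA replication, 2 rose and 30 fell with bleomycin, 0 rose and 33 fell with doxorubicin, and 2 rose and 12 fell with IL-1β; the median log2 difference was -0.64, -1.01 and -0.11. Mcm5 of the replicative helicase averaged 28.3 ± 2.64 FPKM in vehicle, 13.2 ± 1.00 with bleomycin, 8.58 ± 0.928 with doxorubicin and 24.4 ± 1.17 with IL-1β. Pcna, the sliding clamp, averaged 44.5 ± 4.22, 35.8 ± 2.61, 28.1 ± 0.862 and 49.9 ± 2.44 FPKM in the same order, and fell with both drugs. Ccna2, the cyclin of S phase and G2, had the largest decrease of the list with doxorubicin and with IL-1β, and the largest but Mcm5 with bleomycin. It fell from 32.4 ± 3.04 FPKM in vehicle to 15.4 ± 0.564 with bleomycin, 7.41 ± 0.677 with doxorubicin and 21.3 ± 1.79 with IL-1β. In the same drug libraries in which 16 histone genes rose, most replication genes fell. For 8 of the 16 a higher drug value was built into the selection. Of the 9 histone genes that needed no drug library to be tested, 8 rose with each drug. Between the drugs, 22 of the 36 replication genes were higher with bleomycin than with doxorubicin and 0 lower. By the same test 0 of the 17 histone genes differed, where 10.0% of all tested genes did. That share leaves few calls among 17 genes, and H2aw came close (adjusted p = 0.0511, limma). The lists were not tested against each other.

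Of 24 histone chaperones, proteins that carry histones to DNA, 1 rose and 13 fell with bleomycin and 0 rose and 17 fell with doxorubicin. Over all tested genes 27.9% rose and 19.0% fell with bleomycin, and 25.4% rose and 22.8% fell with doxorubicin. Chaf1a, a subunit of the chromatin assembly factor, averaged 5.47 ± 0.337 FPKM in vehicle, 3.54 ± 0.302 with bleomycin, 2.48 ± 0.320 with doxorubicin and 4.72 ± 0.292 with IL-1β. Asf1b, which hands H3 and H4 to that factor, averaged 11.3 ± 0.696, 7.12 ± 0.534, 3.68 ± 0.374 and 9.89 ± 2.02 FPKM. Both fell with both drugs. With IL-1β 1 chaperone rose, Chaf1b (8.51 ± 0.512 to 12.1 ± 0.456 FPKM), and 4 fell, where 24.5% of all tested genes rose and 18.4% fell.

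Many replacement histones and variants are made outside S phase from ordinary polyadenylated mRNAs, which need not hold for each gene listed. Of 11 tested, 3 rose and 4 fell with bleomycin, 0 rose and 4 fell with doxorubicin, and 2 rose and 2 fell with IL-1β. Over all tested genes 27.9% rose and 19.0% fell with bleomycin, 25.4% and 22.8% with doxorubicin, and 24.5% and 18.4% with IL-1β. H2az1, the variant H2A.Z, fell from 161 ± 2.00 FPKM in vehicle to 89.5 ± 8.19 with bleomycin and 59.6 ± 2.48 with doxorubicin and rose to 217 ± 21.2 with IL-1β. H2ax, which is phosphorylated at DNA breaks, averaged 26.0 ± 5.62, 18.5 ± 2.81, 11.1 ± 2.00 and 26.6 ± 2.21 FPKM, and fell with both drugs. Cenpa, the H3 variant of centromeres, averaged 35.8 ± 5.30 FPKM in vehicle, 13.3 ± 2.61 with doxorubicin and 43.0 ± 4.83 with IL-1β, ranged from 16.7 to 23.9 with bleomycin, and also fell with both drugs. H1f0, a linker histone of non-dividing cells, rose with bleomycin (69.0 ± 6.44 to 94.8 ± 6.49 FPKM), averaged 64.5 ± 1.73 with doxorubicin and fell with IL-1β to 45.3 ± 4.44. H3f3a, H3f3b and H2aj did not pass against vehicle under any treatment; the IL-1β libraries of H2aj ranged from 8.31 to 82.0 FPKM.

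Of 30 tested genes that transcribe histone genes or process and degrade their mRNAs, 5 rose and 5 fell with bleomycin. In this list 1 rose and 13 fell with doxorubicin, and 1 rose and 4 fell with IL-1β. Over all tested genes 27.9% rose and 19.0% fell with bleomycin, 25.4% and 22.8% with doxorubicin, and 24.5% and 18.4% with IL-1β. Slbp, which binds the stem-loop, averaged 16.4 ± 0.394 FPKM in vehicle, 14.8 ± 0.777 with bleomycin, 12.4 ± 1.27 with doxorubicin and 16.3 ± 0.913 with IL-1β. It fell with doxorubicin (log2 difference -0.38 ± 0.07, adjusted p = 0.00021, limma) and did not pass with bleomycin (-0.15 ± 0.07, adjusted p = 0.0866). Npat, the coactivator of histone gene transcription, averaged 4.70 ± 0.599, 5.12 ± 0.806, 5.31 ± 0.171 and 5.13 ± 0.422 FPKM and passed in no comparison with vehicle, nor did Casp8ap2. Cstf2, a cleavage factor shared with ordinary polyadenylation, fell with all 3 treatments (14.3 ± 1.04 FPKM to 8.98 ± 0.602, 7.24 ± 0.655 and 10.7 ± 0.988). Tut7, a terminal uridylyltransferase of RNA decay, rose with both drugs (19.2 ± 1.72 FPKM to 24.98 ± 2.02 and 26.7 ± 2.02).

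Because RNA without a poly(A) tail can be carried over into such libraries, 20 tail-less RNAs (7SK, RNase P, Y and small nucleolar RNAs among them) were described beside the histones, of which 7 passed the filter. With bleomycin 1 rose and 1 fell, with doxorubicin 2 rose and 2 fell, and with IL-1β 2 rose and 1 fell. Over all tested genes 27.9% rose and 19.0% fell with bleomycin, 25.4% and 22.8% with doxorubicin, and 24.5% and 18.4% with IL-1β. The sum of the 20 was 37.3 to 46.2 FPKM in vehicle, 29.7 to 41.9 with bleomycin, 27.0 to 46.1 with doxorubicin and 47.1 to 63.1 with IL-1β. In this sum both drug groups overlapped vehicle. Of the 20, 9 stayed below 1 FPKM, and carry-over itself was not measured. Within the list the genes differed: Rn7sk averaged 7.55 ± 1.55 FPKM in vehicle, 12.3 ± 4.08 with bleomycin, 15.03 ± 6.54 with doxorubicin and 14.8 ± 1.92 with IL-1β and rose with each, while Snora73b fell from 14.6 ± 2.03 to 8.50 ± 0.910 and 7.22 ± 1.04 with the drugs. Rpph1, the RNA of RNase P, averaged 4.05 ± 2.50, 2.76 ± 1.93, 3.03 ± 1.43 and 7.99 ± 5.43 FPKM and did not pass against vehicle. How much of the histone signal was tailed was not tested.

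**Figure D5:**
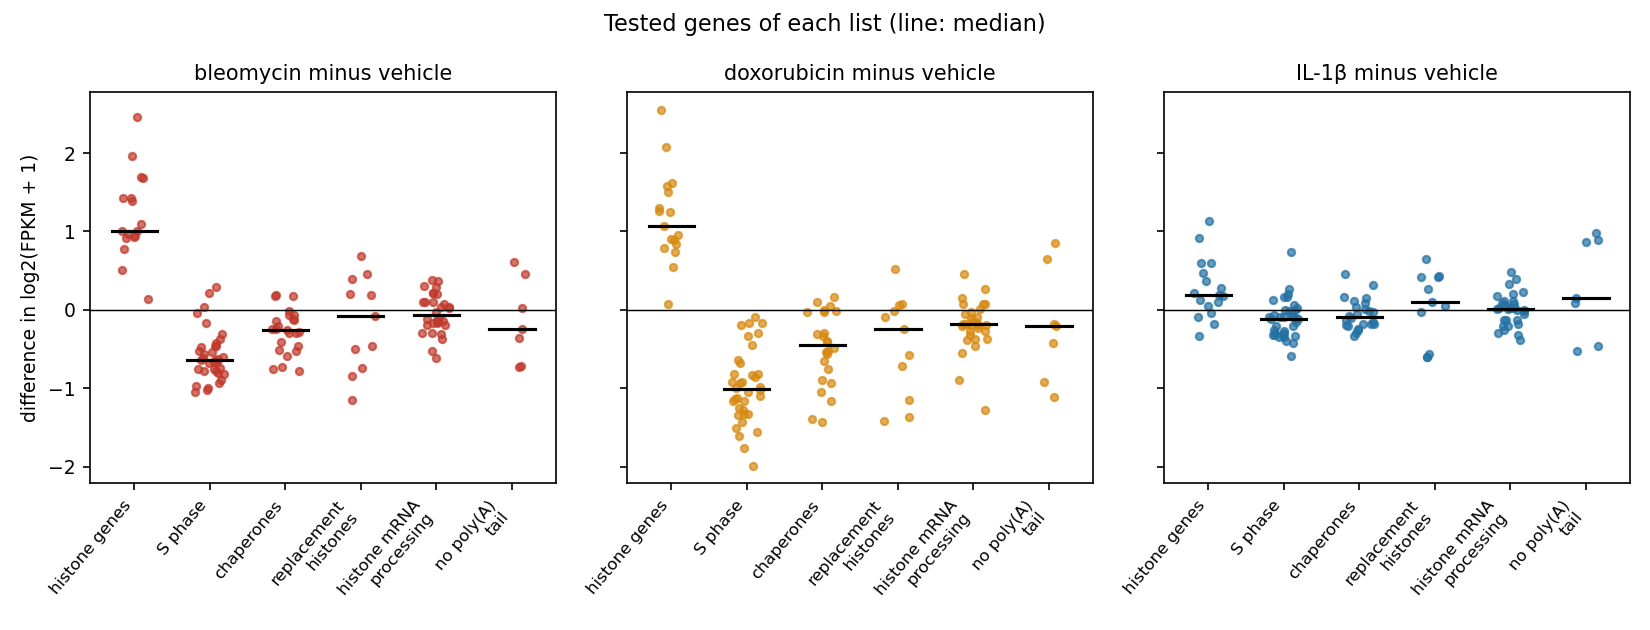
Difference in log2(FPKM + 1) from vehicle of each tested gene (points) of 6 lists, with the list median as a line, for bleomycin, doxorubicin and IL-1β. With both drugs the histone genes lie above 0 (median 1.00 and 1.07) and most S phase genes below it (median -0.64 and -1.01). With IL-1β the medians are 0.18 and -0.11. Over the 9 histone genes that needed no drug library to be tested, the medians are 1.42 with bleomycin, 1.26 with doxorubicin and 0.47 with IL-1β.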

How the data were processed

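Poly(A)-selected RNA of 16 libraries was measured. The authors deposited FPKM values per gene; the submitters' processing notes name Trimmomatic, STAR and GRCm38, and no source used here gives the FPKM tool, its annotation or its handling of multi-mapping reads. Members, gene lists, comparisons and alternatives were chosen with earlier results of these data known.

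Values were tested as log2(FPKM + 1) with limma (version 3.58.1, R 4.3.3; lmFit and eBayes with a trend) across all 4 groups, for genes reaching 1 FPKM in 4 or more libraries, in 5 comparisons, with Benjamini-Hochberg adjustment within each. The added 1 understates changes of low genes; a fold is a ratio of mean FPKM. FPKM is scaled to the total of each library, so levels are relative. The fit was tested on simulated data. Every member that passed the filter is named, and the leading 3 of each class are given by library. Of the listed genes, a few named in the rule and the largest changes of a list are given. Of 55450 identifiers, 55104 matched GENCODE M21 without the version. Sequences were searched with Python 3.11.15. At most 0.00853% of values were equal between 2 replicates, so no library looked like a copy of another.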

Additional observations from a re-analysis of the deposited data

Results flagged for a closer look

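Among 88 groups of 4 libraries examined (17 tested histone genes and 5 class sums in each of 4 treatments), 2 had a library far from the other 3, where chance alone flags about 1 in 20 groups (4.4 of 88). IL-1β library 2 had 0.583 FPKM of H3c4, against 0.291 to 0.317 in the other IL-1β libraries. Bleomycin library 2 had a summed H4 level of 62.5 FPKM, against 49.0 to 50.4 in the other bleomycin libraries. The same library had the highest bleomycin values of H4c9 (26.7 FPKM) and H4c8 (25.1 FPKM).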

How the results depend on the processing

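All alternatives were planned: another pseudocount, 2 filters, 2 scalings, a replicate block, only the groups compared, and each library left out. Over 1894 alternative values of the tested histone genes, 1883 kept their direction and their side of the threshold (or were without a call in both), 2 lost their call, 9 gained one and 0 reversed; 31 values without a call differed in sign. With a filter of 5 FPKM, which tests 7 members, 7 rose with bleomycin (28.8% of all genes tested), 7 with doxorubicin (25.6%) and 5 with IL-1β (26.7%). Under that filter 1 differed between the drugs (11.7% of all genes tested). The drugs were higher than IL-1β in 6 (28.9%). Without a filter 22 of 65 were higher with the drugs than with IL-1β (14.0% of all genes). Leaving out each library gave 16 to 16 calls for each drug, 6 to 7 for IL-1β, 0 to 1 between the drugs and 14 to 15 for the drugs against IL-1β. With the replicate block, 1 gene (H2aw, adjusted p = 0.0497, limma) differed between the drugs, where 11.5% of all tested genes did. With that block 15 were higher with the drugs than with IL-1β (29.1% of all tested genes), Hist1h2al being the gene added (adjusted p = 0.0131, limma). The other 3 counts were as without it. Whether same-numbered libraries share more than a number is not given in the labels. Their deviations correlated at -0.023 to 0.214 (median 0.052, 24 pairs, 6 over 0.1). Differently numbered pairs correlated at -0.195 to 0.099 (median -0.023, 72 pairs, 0 over 0.1). Of 16 libraries, 4 matched best with their own number in every other group. A shared origin by number was not tested. Of 3891 values of listed genes, 70 lost a call, 57 gained one and 0 reversed. No scaling moved the median of all genes by as much as 0.1. Depth limits genes near 1 FPKM.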
